A study of Mus musculus with 2 samples.

Results

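The comparison described here is between hair follicle stem cells of unwounded mouse skin and the cells of the same marked lineage 3 days after a skin wound, both from mice with an intact Phgdh gene. Phgdh encodes the enzyme that begins serine synthesis, and the series also profiled mice with a conditional (fl/fl) Phgdh allele. All mice were C57B6/J and carried Sox9-CreER;R26-LSL-YFP, an allele pair in which Cre active in Sox9-expressing cells switches on a yellow fluorescent protein that the cells and their progeny keep. The study asked how these stem cells and their progeny respond to wounding in the presence or absence of the conditional allele. Unwounded Phgdh +/+ cells had been sorted as live, YFP+, integrin-α6 high, CD34+ and CD200+ cells negative for SCA1 and for CD140a, CD117, CD31 and CD45, whereas 3-day cells were sorted without the SCA1, CD34 and CD200 gates. The sort therefore differs with the condition, and the part of each difference that comes with the gate cannot be told apart from the wound. Each condition was 1 pool of cells marked with its own hashtag, and the 6 hashtagged pools ran in 1 capture. The labels give both sexes for the capture as a whole and do not give the sex of each pool. There is thus 1 pool per condition and no spread between animals: no test was made, and intervals cover counting error only.

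Cells were barcodes with at least 1000 gene UMIs (unique molecular identifiers, 1 per captured RNA molecule), 500 genes or more, and no more than 10% of UMIs from mitochondrial genes. A cell was given to a condition when 1 hashtag had at least 20 UMIs and at least 70% of its hashtag UMIs. The rule found 267 unwounded and 1410 3-day Phgdh +/+ cells, together 1677 of 5887 tagged cells in the series. Because a cell belongs to a single hashtag in a single capture, the pools share no barcode. The hashtags themselves are 15-base barcodes of lipid-anchored oligonucleotides, and they are shown because they alone assign a cell to its condition.

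CMO301, unwounded +/+: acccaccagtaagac
CMO303, 3 days +/+: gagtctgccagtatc

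The bulge is the part of the hair follicle outer root sheath in which slow-cycling stem cells reside. These cells are held quiescent by BMP signals and by transcription factors such as SOX9, LHX2 and NFATC1, and they secrete factors that shape their own niche. After a wound, stem cells of the follicle leave the niche, migrate into the epidermis, divide and take on features of epidermal keratinocytes. The wound-activated state of keratinocytes is known for keratins 6, 16 and 17, for matrix-degrading proteases and for EGF-family ligands.

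The pools differed in depth. Unwounded cells had a median of 7210 UMIs and 2692 genes and summed to 2131534 UMIs, and 3-day cells had a median of 41133 UMIs and 5632 genes and summed to 61681465 UMIs. A count of 0 therefore allows up to 1.41 CPM (a gene's UMIs over the pool's total, times 1000000) in the unwounded pool and 0.0486 CPM in the 3-day pool. From sex-linked genes, 139 unwounded cells were called male, 0 female and 128 of 267 had no call, whereas at 3 days 818 were called male, 420 (29.8%) female and 172 had no call. The shallower unwounded cells thus lacked a call more often, and of these pools the 3-day pool alone held cells called female. Most marker sums of other cell types were low. Fibroblast markers came to 24.4 CPM in the unwounded and 1.3 CPM in the 3-day pool, and T cell markers to 0 and 0.827 CPM. Melanocyte markers summed to 588 and 21.2 CPM, and 2 of the 6 were at 0 in the unwounded pool. Nearly all of that sum was Mitf, a transcription factor of pigment cells, at 586 and 20.1 CPM over the pools and at 659.7 and 87 CPM in bulge-like cells. Sebaceous gland markers came to 158 and 229 CPM. Neutrophil markers summed to 29.6 and 977 CPM, nearly all of it S100a8 and S100a9, which keratinocytes of wounds also express. In pools summed over cells, fewer cells of a type and less RNA per cell cannot be told apart. Of the 267 unwounded cells, 255 fell into clusters named bulge-like. The markers that name these clusters include Cd34 and Cd200, whose proteins gated the unwounded sort, so this is no independent check of the label. The other 12 unwounded cells held 13.5% of the pool's UMIs, which matters for genes that are low in the bulge. The level in the 255 bulge-like unwounded cells is given beside some of these genes, and genes shown without it can be affected too. Mitosis genes summed to 423.6 CPM in the unwounded pool and 262.6 CPM in its bulge-like cells, and glycolysis genes to 2558 and 1869 CPM.

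Of 32285 genes, 6449 had a mean of at least 20 CPM over both pools and are called measured. Among them 758 (11.8%) were at least 2-fold higher and 1521 (23.6%) at least 2-fold lower at 3 days, so that 33.3% of the 2-fold differences were higher. The median log2 fold over all measured genes was -0.17. Scaling with TMM factors, which assume that most genes do not differ, added 0.61 to every log2 fold and turned the split into 1947 higher and 708 lower (73.3% higher). Log2 folds below are ratios of CPM without those factors, and direction is given for differences larger than that shift unless stated. A measured gene under 13.3 CPM in 1 pool had to pass 2-fold by construction; this held for 158 of the higher and 418 of the lower genes, and the number is given for each gene list.

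**Figure D1:**
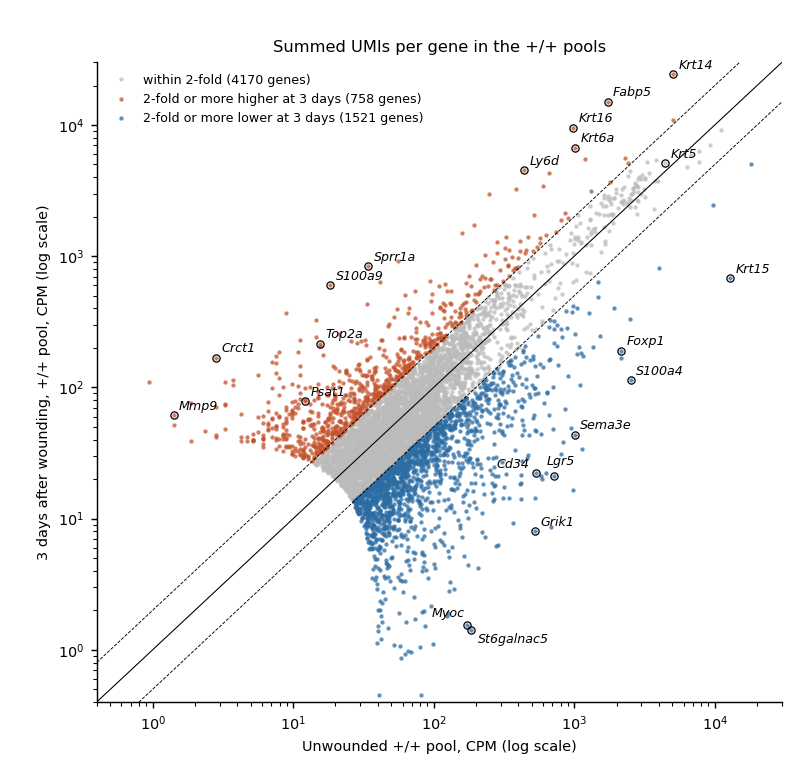
CPM of each measured gene (points, n = 6449) in the unwounded +/+ pool (x axis, log scale) and in the 3-day +/+ pool (y axis, log scale), with dashed lines at 2-fold and genes at 0 in a pool drawn at the lower edge. The 1521 genes at least 2-fold lower reach further from the diagonal than the 758 higher genes, and Krt5 lies near it.

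Transcription factors of the bulge were lower at 3 days as a group. Of 26 listed factors, 21 were measured, 16 were at least 2-fold lower and 1 was at least 2-fold higher, with a median log2 fold of -2.01 and none called by the filter alone. Zbtb16, a zinc-finger repressor, was at 802 CPM in unwounded and 31.1 CPM in 3-day cells (log2 fold -4.69, -4.78 to -4.60). Lhx2, a LIM-homeodomain factor of follicle stem cells, went from 421 to 21.7 CPM (-4.28), and its level in fl/fl pools was 419.5 and 17.2 CPM. Foxp1, a forkhead factor linked to bulge quiescence, was at 2166 and 191 CPM (-3.50). The nuclear factor I genes share a DNA-binding fold, and Nfib was at 2486 and 333 CPM (-2.90) and Nfix at 668 and 165 CPM (-2.01). Nfatc1, a calcium-regulated factor of stem cell quiescence, had 195 CPM in unwounded and 39.1 CPM in 3-day cells. Runx1, which supports follicle stem cell activation, differed least among these, with 151 and 91.9 CPM (-0.72). The only listed factor at least 2-fold higher was Hes1, a Notch effector, at 26.3 and 55.4 CPM (1.08, 0.70 to 1.48, but 0.61 with the 90% hashtag rule and 0.77 over male cells).

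Factors that bulge cells secrete into their niche showed larger differences. 21 of 30 were measured, 17 were at least 2-fold lower (7 called by the filter alone) and 1 was higher, with a median log2 fold of -3.74. Myoc, the secreted glycoprotein myocilin (chr1:162639150-162649694 in GRCm38), was at 174 CPM in unwounded cells and 1.56 CPM at 3 days (-6.80, -7.14 to -6.47). Ltbp2, a binding protein of the extracellular matrix, was at 123 and 1.8 CPM, and Fgf18, a growth factor that holds follicles at rest, at 52.1 and 1.09 CPM. Both levels at 3 days lie far under the unwounded ones. Grem1, a secreted BMP antagonist, was at 417 and 14 CPM (-4.90), and Sema3e, an axon and vessel guidance ligand, at 1009 and 43.5 CPM (-4.54). The neurotrophic ligand Nrtn went from 411 to 18.2 CPM. Periostin (Postn), a matrix protein, kept a higher residual level, 1349 against 203 CPM (-2.74). Fst, an activin antagonist, was at 196 and 128 CPM, a difference no larger than the TMM shift. Ctsh, a lysosomal protease, was the member at least 2-fold higher, at 32.4 and 79.5 CPM (1.30).

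A group of genes better known from neurons had the lowest median of all lists. The lists and their members were chosen with earlier results of these data known, so this rank is a description only. Of 18 measured members of 32, 16 were at least 2-fold lower (8 by the filter alone) and 0 were higher, with a median log2 fold of -4.18 in +/+ and -4.43 in fl/fl pools. St6galnac5, a sialyltransferase of gangliosides (chr3:152819885-152982210), was at 183 CPM (95% interval 165 to 202) in unwounded and 1.41 CPM (1.13 to 1.74) in 3-day cells. That was the lowest fold of all named genes (log2 -7.02). Grik1, a kainate receptor subunit, was at 523 and 8.04 CPM (-6.02). Chat, the acetylcholine-synthesising enzyme, was at 206 and 4.2 CPM (-5.61), and Kcnma1, a large-conductance potassium channel, at 140.3 and 2.89 CPM (-5.60). These transmitter and channel genes were thus at 8.04 CPM or less in the 3-day pool. The kinase gene Camk4 had 286 and 6.26 CPM, the potassium channel gene Kcnk2 415 and 18.8 CPM, and Tenm2, an adhesion protein of synapses, 1110 and 182 CPM.

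Among the 20 genes with the lowest folds (at least 50 CPM on average), several belong to no niche or neuronal list. Me3, a mitochondrial malic enzyme, was at 126 and 1.91 CPM (-6.04), and Il31ra, a receptor subunit for the itch cytokine IL-31 (chr13:112521931-112580732), at 1132 and 33.7 CPM (-5.07, -5.16 to -4.99). Mertk, a receptor kinase for dying cells, was at 164 and 5.16 CPM. Within 3-day cells, values by sex stayed on the same side for Il31ra, with 29.6 CPM in male and 38.2 CPM in female cells. In the fl/fl pools the same gene was at 1038 and 28.1 CPM. Among the 20 highest, Gsta4, a glutathione transferase for lipid peroxidation products, was at 41.8 and 636 CPM (3.93), and 1 unwounded cell held 21.4% of its unwounded UMIs. Crabp2, a retinoic acid binding protein, was at 14.5 and 242 CPM (4.05). Calm4, a calmodulin-like protein of differentiating keratinocytes, was at 55.4 and 921 CPM (4.06).

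**Figure D2:**
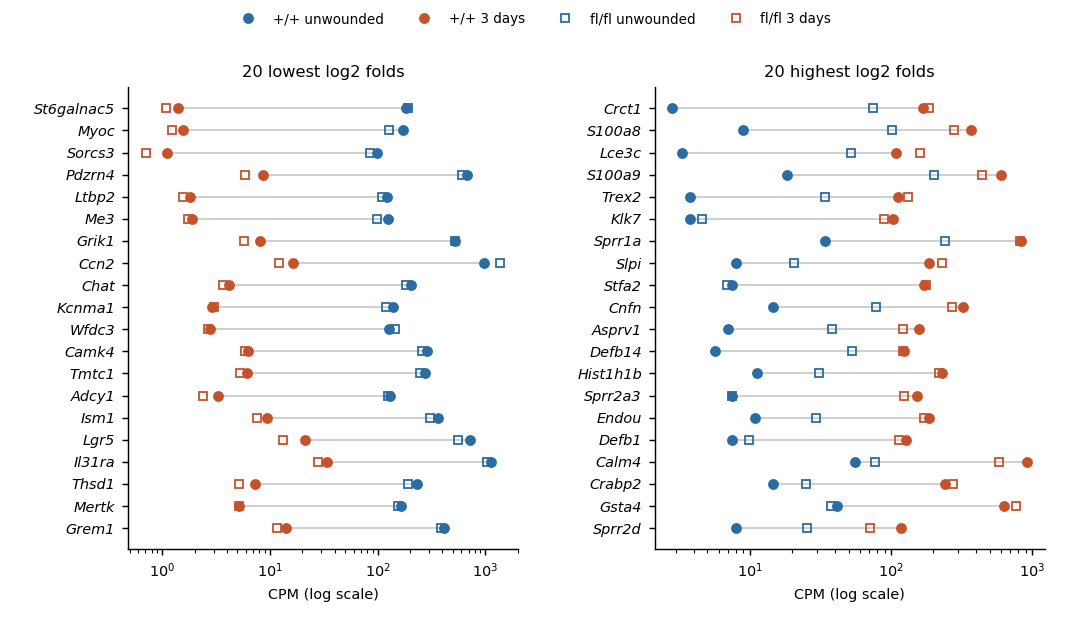
CPM (x axis, log scale) of the 20 genes with the lowest (left) and highest (right) log2 folds in the +/+ pools, filled circles for +/+ and open squares for fl/fl. The fl/fl pools lie beside the +/+ pools for the lowest genes, whereas for Crct1 and S100a8 the unwounded fl/fl pool (74.8 and 102 CPM) lies well above the unwounded +/+ pool (2.82 and 8.91 CPM).

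Keratins differed by member. Of 6 measured bulge and follicle keratins, 3 were at least 2-fold higher and 2 lower (median 1.11), and of 7 wound and suprabasal keratins, 5 were higher by that limit and 2 lower (median 2.73). Krt15, the classical bulge keratin, was at 12870 CPM in unwounded and 679 CPM in 3-day cells (-4.24), while Krt5, the type II keratin of all basal cells, was at 4414 and 5140 CPM. Krt14, the partner of keratin 5, was at 5073 and 24300 CPM (2.26, 2.23 to 2.29). Krt17, a keratin of follicles and wounds, was at 601 and 3434 CPM (2.52). The stress keratins were among the most different: Krt16 (chr11:100246091-100248902) was at 984 and 9559 CPM (3.28), with 541 CPM in bulge-like unwounded cells. Krt6b (chr15:101676023-101680293) was at 248 and 2956 CPM (3.57), with 197 CPM in bulge-like unwounded cells. Krt6a and Krt6b are near-identical copies, so that reads may be split between them. Keratins of the suprabasal layers were higher too, with Krt1 at 160 and 1500 CPM (3.23) and Krt10 at 280.1 and 1275 CPM (2.19). A single unwounded cell held 49.9% of the unwounded Krt10 UMIs. Without the 129 suprabasal-like 3-day cells the log2 fold was 0.60 for Krt1 and -0.48 for Krt10. Both keratins are among the markers that named those cells, so leaving the cells out lowers these folds by construction. Krt80 was lower, 101 against 19.3 CPM (-2.38).

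BMP signalling genes, which hold bulge cells at rest, were mostly lower. Of 14 measured genes of 20, 8 were at least 2-fold lower (3 by the filter alone) and 1 was higher, with a median log2 fold of -1.19. The ligand Bmp7 was the higher one, at 10.3 and 34.6 CPM (1.75, but 0.76 when the top hashtag had to hold 90% of hashtag UMIs). The receptor Bmpr1a was at 134 and 83.9 CPM (-0.68). Secreted antagonists were lower: Nog was at 40.4 and 1.39 CPM and Nbl1 at 160.4 and 14.8 CPM (-3.44). The Id genes are direct targets of BMP receptors and encode dominant-negative helix-loop-helix proteins. Id2 was at 289 and 21 CPM, Id4 at 82.1 and 5.55 CPM, and Id1 at 267 and 128 CPM (-1.07), so that all measured Id genes were lower.

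WNT pathway genes, which act in follicle growth, had a median log2 fold of -2.13, with 10 of 15 measured members at least 2-fold lower (3 by the filter alone) and 2 higher. Among ligands, Wnt4 was at 104 and 213 CPM (1.03) and Wnt10a at 16 and 49 CPM (1.62), and these were the higher members. Receptors were lower: Fzd2 was at 318 and 17.4 CPM (-4.19), and Lgr4, a receptor for R-spondins, at 363 and 58.3 CPM (-2.64). Dkk3, a secreted Dickkopf family member, was at 251 and 23.5 CPM (-3.42), and Axin2, the feedback target of the pathway, just under the limit of measurement, at 31.9 and 7.83 CPM (-2.03). Hedgehog genes numbered 6 measured, and all 6 were at least 2-fold lower (1 by the filter alone; median -2.57). The co-receptor genes Boc and Gas1 were at 244 and 29.2 CPM and at 502 and 104 CPM. Smo, the signal transducer, was at 77.9 and 36.1 CPM (-1.11).

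Notch genes, which direct suprabasal fate, were split, with 4 of 8 measured members at least 2-fold lower, 2 higher and a median of -0.90. The coactivator gene Maml2 was at 339 and 60.3 CPM (-2.49), the ligand Jag1 at 131 and 48.3 CPM (-1.44), and the feedback target Nrarp at 13.6 and 65.3 CPM (2.26). The TGF-beta and activin list had a median of -0.61, which became 0.00 with TMM factors, and 6 of 16 members were at least 2-fold lower and 1 higher (2 by the filter alone). Tgfbi, an adhesion protein induced by TGF-beta, was at 432 and 194 CPM (-1.16).

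Target genes of YAP and TEAD factors, which act downstream of cell tension, were lower on balance: 11 of 20 measured members were at least 2-fold lower (2 by the filter alone), 1 was higher and the median was -1.27. The CCN proteins Ccn1 and Ccn2 are matricellular proteins and standard readouts of YAP. Ccn2 was at 979.6 CPM in unwounded and 16.5 CPM in 3-day cells (-5.89), and at 1378 and 12.3 CPM in the fl/fl pools. Ccn1 was at 471 and 30.4 CPM (-3.96), and Crim1, a membrane protein, at 441 and 78.9 CPM (-2.48). Yap1 itself was at 110.2 and 68.6 CPM (-0.68). The exception was F3, tissue factor, which starts blood clotting, at 25.8 and 227 CPM (3.13, with 40% of the unwounded UMIs in 1 cell). TEAD factors bind CATTCC, and the promoter of Ccn1 is shown as a member of a list whose genes were lower together. The stretch below runs from 145 to 56 bases before its start (RefSeq, GRCm38.p6, minus strand, chr3:145650041-145650130), with the motif in capitals.

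Ccn1: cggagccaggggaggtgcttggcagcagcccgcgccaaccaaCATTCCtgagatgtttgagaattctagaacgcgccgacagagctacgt

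Searched on both strands of 300-base promoters (250 bases before to 50 after the start), CATTCC was found in 13 of 25 entries of the YAP list (52%) and in 14.7% of all 32851 entries. A match is a description of the letters and does not show binding. Of 1422 list members, 1091 had a RefSeq promoter entry.

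EGF-family genes drive keratinocyte division and migration, and their ligands were higher. Of 14 measured members of 22, 8 were at least 2-fold higher (1 by the filter alone) and 1 was lower, with a median log2 fold of 1.04 against -0.17 for all measured genes. Hbegf, the heparin-binding ligand, was at 48.3 and 305 CPM (2.66, 2.38 to 2.95). Areg, amphiregulin, was at 116 and 392 CPM (1.75), Tgfa at 19.2 and 79.6 CPM (2.05), and Epgn, epigen, at 42.2 and 228 CPM (2.43). For the last 3 ligands, 1 unwounded cell held 36.3%, 46.3% and 67.8% of the unwounded UMIs, and bulge-like unwounded cells had 10.9, 7.05 and 6.51 CPM. Nrg1, neuregulin, was at 62.4 and 503 CPM (3.01) and at 14.1 CPM in bulge-like unwounded cells. The receptor Egfr moved the other way, 657 against 163 CPM (-2.01, -2.10 to -1.93), with 568 and 150 CPM in fl/fl pools. Erbb3, a neuregulin receptor, was at 21.1 and 43.2 CPM (1.03).

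Other growth factor genes were divided, with 7 of 13 measured members at least 2-fold lower, 3 higher (4 of these by the filter alone) and a median of -1.65. Fibroblast growth factor genes were lower on the side of ligand and receptor: Fgf1 was at 129 and 5.06 CPM (-4.67), Fgfr1 at 218 and 21 CPM (-3.38), and Fgfr2 at 365 and 109 CPM (-1.74). Pdgfa, a ligand for fibroblasts, was at 131 and 34.7 CPM (-1.92). Fgfbp1, a carrier that releases FGFs from the matrix, was at 75.1 and 263 CPM (1.81). Guidance genes were mostly lower (11 of 18 at least 2-fold lower, 1 higher, 1 by the filter alone, median -1.25). Among them, Plxna2, a semaphorin receptor, was at 524 and 47.4 CPM (-3.47), and the ephrin gene Efna5 at 1279 and 371 CPM (-1.79). The ephrin receptor Epha2 was higher, 16.9 against 37.6 CPM (1.16).

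Few cytokine genes were measured. Of 26 interleukin and cytokine genes, 3 passed 20 CPM, and all 3 were at least 2-fold higher, 2 of them by the filter alone. Il33, a nuclear alarmin, was at 10.8 and 102 CPM (3.24), Il24 at 23.9 and 131 CPM (2.45), and Clcf1, a ligand of the IL-6 family, at 10.8 and 32.5 CPM (1.59, but 0.68 when cells were assigned with HTODemux). Bulge-like unwounded cells had 8.68, 6.51 and 5.97 CPM of these. Homeostatic chemokines were lower: Cxcl14 was at 1522 and 247 CPM (-2.63), Ccl27a, which attracts skin T cells, at 518 and 61.1 CPM (-3.08), and Cxcl12 at 72.3 and 4.9 CPM (-3.88). The neutrophil attractant Cxcl1 did not reach the mean of 20 CPM, with 2 UMIs in the unwounded pool and 33.9 CPM at 3 days (log2 ratio 5.17, 3.32 to 8.22).

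Genes of the innate defence had different levels in the unwounded pools of the genotypes. Of 6 measured alarmin and antimicrobial genes, 5 were at least 2-fold higher at 3 days (4 by the filter alone), with a median of 4.50 in +/+ and 1.33 in fl/fl pools. Slpi, a protease inhibitor with antimicrobial action, was at 7.98 and 185 CPM in +/+ and at 20.7 and 231 CPM in fl/fl pools. Defb14, a beta-defensin, was at 5.63 and 124 CPM in +/+ and at 53.1 and 122 CPM in fl/fl pools. The 3-day levels were thus close in the genotypes, and the unwounded levels were not. Whether this comes with the 12 unwounded +/+ cells outside the bulge-like clusters or their counterparts was not tested. Defb6, a beta-defensin of the upper follicle, was at 244 and 235 CPM, but 1 unwounded cell held 75.9% of its unwounded UMIs and bulge-like unwounded cells had 3.8 CPM. Among S100 genes, S100a4, linked to motile cells, was at 2524 and 113 CPM (-4.48), while S100a11 was at 897 and 1950 CPM (1.12) and S100a14 at 362 and 979 CPM (1.43).

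Feedback genes of NF-kB and STAT3, which report cytokine signalling, were at least 2-fold higher in 9 of 14 measured cases (1 by the filter alone) and lower by that limit in 0, with a median of 1.23. Socs3, an inhibitor of STAT3 signalling, was at 38.9 and 142 CPM (1.87), Nfkbiz at 60.1 and 159.9 CPM (1.41), and Tnfaip3, the A20 brake on NF-kB, at 11.7 and 54.9 CPM (2.23). Ptgs2, the inducible cyclooxygenase, was at 37.5 and 141 CPM (1.91), with 45% of the unwounded UMIs in 1 cell and 13 CPM in bulge-like unwounded cells. Tnfrsf12a, the receptor of TWEAK, was at 30.03 and 133 CPM (2.14). MHC genes had a median of -0.53, which turned positive with TMM factors, and 2 of 8 were at least 2-fold lower. H2-T23, a non-classical class I gene, was at 123 and 40.9 CPM (-1.59).

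Proteases that clear matrix and fibrin were raised in part. Of 10 measured genes of 24, 5 were at least 2-fold higher (4 called by the filter alone) and 2 lower, with a median of 1.25 in +/+ and 2.04 in fl/fl pools. Plaur, the urokinase receptor (chr7:24460937-24475970), was at 6.1 and 40.7 CPM (2.74, 1.96 to 3.65), and Serpinb2, an inhibitor of urokinase, at 121 and 617 CPM (2.36). Adamts1, a proteoglycan-cleaving protease, was at 34.7 and 132 CPM (1.93), whereas Timp2, a metalloproteinase inhibitor, was at 259.9 and 18.7 CPM (-3.79). The collagenase Mmp13 rested on a single cell in the unwounded pool, which held 99.1% of its 115 UMIs: the pool values were 54 and 80.3 CPM, but bulge-like unwounded cells had 0.543 CPM. AP-1 factors bind TGANTCA, and a promoter entry of Plaur holds a match. The stretch runs from 111 to 22 bases before a start that lies inside the gene span given above (RefSeq, GRCm38.p6, plus strand, chr7:24462372-24462461).

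Plaur: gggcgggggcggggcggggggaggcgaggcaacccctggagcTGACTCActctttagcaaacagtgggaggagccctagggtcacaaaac

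The motif was present in 9 of 20 promoter entries of the protease list (45%) and in 7.81% of all entries, both strands searched. Kallikreins, serpins and cystatins regulate shedding of the outer skin. In this list 16 of 24 measured members were at least 2-fold higher (7 of all calls by the filter alone), 3 were lower and the median was 1.90. Klk10 was at 11.3 and 145 CPM (3.69) and Klk8 at 9.85 and 107 CPM (3.44), with 10.3 and 3.8 CPM in bulge-like unwounded cells. Spink5, the inhibitor lost in Netherton syndrome, was at 32.8 and 210.2 CPM (2.68). Cystatins Cst6 and Stfa3 were at 199.9 and 857 CPM and at 327 and 1393 CPM. One unwounded cell held 77.7% and 64.1% of their unwounded UMIs, and bulge-like unwounded cells had 42.3 and 83.6 CPM, so that folds of these genes depend on single cells. Cst3, the widely expressed cystatin C, was lower, 719 against 322 CPM (-1.16).

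Basement membrane genes, which anchor basal cells, were lower: 12 of 18 measured members were at least 2-fold lower (6 by the filter alone), 1 was higher and the median was -1.59. Type IV collagen genes Col4a5 and Col4a6 lie side by side on the X chromosome and were at 95.2 and 7.99 CPM (-3.57) and at 101 and 6.06 CPM (-4.06). Npnt, nephronectin, a ligand through which bulge cells anchor muscle, was at 129 and 12.3 CPM (-3.39). Of the chains of laminin-332, the substrate of migrating keratinocytes, Lama3 was at 175 and 309 CPM (0.83) and Lamb3 at 230.4 and 223 CPM. Lama3 at 3 days was at 248 CPM in male and 429.9 CPM in female cells. Integrins had a median of -0.58, which TMM factors moved to 0.03. Itgb8 was at 72.7 and 23.4 CPM (-1.63) and Itga2, a collagen receptor, at 119.6 and 51.1 CPM (-1.23), while Itgb1 was at 223 and 374 CPM (0.75). Itga6, the sorting antigen of both gates, was at 245 and 439.6 CPM (0.84).

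Genes of migration and cell shape were higher on balance. In the migration list 8 of 18 measured members were at least 2-fold higher and 3 lower (1 by the filter alone; median 0.72). Cd44, the hyaluronan receptor, was at 214 and 547 CPM (1.36), and Anxa1, a membrane-binding annexin, at 856 and 2139 CPM (1.32). Gap junction genes were higher, with Gjb2 (connexin 26) at 73.7 and 541 CPM (2.88) and Gja1 (connexin 43) at 58.2 and 196 CPM (1.75). Among actin genes, 13 of 34 were at least 2-fold higher and 2 lower (median 0.73, 1 by the filter alone). Fscn1, the actin bundler of cell protrusions, was at 11.3 and 90.2 CPM (3.00), and the tropomyosin gene Tpm2 at 124 and 542 CPM (2.12). Cfl1, the filament-severing cofilin, was at 251 and 667 CPM (1.41). Myh14, a non-muscle myosin, was the opposite, 107 against 13.7 CPM (-2.96). Tubulin genes followed with 7 of 15 at least 2-fold higher, and Stmn1, which destabilises microtubules, was at 42.7 and 231 CPM (2.43).

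Desmosomal genes join keratinocytes, and 4 of 14 measured members were at least 2-fold higher (2 by the filter alone; median 0.49). Dsc2 was at 9.85 and 76.7 CPM (2.96) and Perp, a tetraspan desmosomal protein, at 1066 and 2068 CPM (0.96), while Dsp, desmoplakin, was at 1212 and 1225 CPM and Dsg3 at 411 and 433 CPM. Cdh1, E-cadherin, was at 164 and 308 CPM (0.91).

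Suprabasal differentiation genes, which build the cornified envelope, had a median log2 fold of 3.23 in +/+ and 1.81 in fl/fl pools. Of 21 measured members, 19 were at least 2-fold higher (9 by the filter alone) and 1 was lower. Sprr1a, a small proline-rich envelope protein (chr3:92483954-92485881), was at 34.3 and 839 CPM (4.62, 4.28 to 4.97), and at 239.7 and 819.5 CPM in fl/fl pools. Ly6d, a GPI-anchored surface protein, was at 440.1 and 4516 CPM (3.36), and Krtdap, a secreted protein of differentiating cells, at 382 and 3238 CPM (3.08). Bulge-like unwounded cells had 188 CPM of Ly6d and 192 CPM of Krtdap. Calml3, a calmodulin-like protein, was the lower member, 423 against 107 CPM (-1.99).

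Transcription factors of epidermal fate followed, with 12 of 24 at least 2-fold higher, 4 lower (3 by the filter alone) and a median of 0.96. Ovol1, a zinc-finger factor of epidermal commitment, was at 18.8 and 99.1 CPM (2.40, 5.43 CPM in bulge-like unwounded cells). Grhl3, a barrier factor, was at 7.04 and 48.9 CPM (2.80), and Prdm1, the repressor Blimp1, at 7.98 and 59.7 CPM (2.90). Klf5, a factor of basal and wounded epithelium, was at 69 and 242 CPM (1.81). Trp63, the p63 master factor of stratified epithelia, was lower, 821 against 243 CPM (-1.76, -1.83 to -1.68), as was Rora, 457 against 100.2 CPM (-2.19).

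Immediate early genes, which respond to stress and to tissue dissociation within minutes, gave no common direction in +/+ pools: 1 of 22 was at least 2-fold higher, 3 were lower, and the median was -0.08 in +/+ (positive with TMM factors) and -0.90 in fl/fl pools. Fos was at 1651 and 1240 CPM and Junb at 378 and 608 CPM (0.69), whereas Fosb was at 971 and 374 CPM (-1.38). Among other wound and stress factors, Fosl1, an AP-1 subunit of migrating keratinocytes, was at 25.3 and 90.5 CPM (1.84), and Hif1a, the oxygen-regulated factor, at 156 and 352 CPM (1.18).

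Genes induced by ATF4, the transcription factor through which the integrated stress response acts, had a median of 1.35 in +/+ and 1.70 in fl/fl pools, with 7 of 11 measured members of 24 at least 2-fold higher (2 by the filter alone) and 0 lower. Nupr1, a stress-induced chromatin protein, was at 23.9 and 134 CPM (2.49, 2.09 to 2.91) in +/+ and at 26.5 and 125 CPM in fl/fl pools. Eif4ebp1, a translation inhibitor, was at 45.5 and 171 CPM (1.91) in +/+ and at 36 and 196 CPM in fl/fl pools. ATF4 binds TGATGNAA with a C/EBP partner. The Nupr1 promoter, from 151 to 62 bases before the start (RefSeq, GRCm38.p6, minus strand, chr7:126625532-126625621), holds it on the opposite strand of the letters shown.

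Nupr1: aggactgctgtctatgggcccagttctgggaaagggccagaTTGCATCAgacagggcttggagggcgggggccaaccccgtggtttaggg

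The motif occurred in 8 of 25 promoter entries of the ATF4 list (32%) and in 3.97% of all entries. Genes of the unfolded protein response had 7 of 19 at least 2-fold higher and 0 lower (median 0.93), among them Calr, the lumenal chaperone calreticulin, at 244 and 590.4 CPM (1.28).

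Circadian genes were lower together. Of 11 measured members of 18, 8 were at least 2-fold lower (5 of the calls by the filter alone) and 1 was higher, with a median of -1.75 in +/+ and -2.30 in fl/fl pools. The time of day at which tissue was collected is not given in the sources used here, so the hour cannot be told apart from the wound. On the activating limb, Npas2 was at 87.7 and 4.07 CPM (-4.43) and Arntl at 51.1 and 20.3 CPM (-1.33). Clock was at 99.9 and 66.4 CPM, a difference no larger than the TMM shift. Of the repressors, Cry2 was at 50.2 and 5.12 CPM (-3.29) and Per1 at 59.1 and 16.9 CPM (-1.81). Clock output factors of the PAR family were lower: Dbp was at 71.8 and 5.58 CPM (-3.69), and Tef at 119 and 7.81 CPM (-3.92). At 3 days Dbp was at 3.67 CPM in male and 9.89 CPM in female cells. The exception was Bhlhe40, a repressor also induced by hypoxia, at 26.3 and 112 CPM (2.09). PAR factors bind the D-box TTATGNAA. The Per1 promoter carries one within the last 90 bases before its start (RefSeq, GRCm38.p6, plus strand, chr11:69098859-69098948).

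Per1: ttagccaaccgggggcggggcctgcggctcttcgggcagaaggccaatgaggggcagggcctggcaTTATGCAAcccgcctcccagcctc

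It was found in 2 of 20 promoter entries of circadian genes (10%) and in 3.38% of all entries.

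Cell cycle inhibitors and quiescence genes were lower, with 12 of 18 at least 2-fold lower (3 by the filter alone), 2 higher and a median of -1.84. Cdkn1b, the inhibitor p27, was at 97.6 and 27.3 CPM (-1.84), Foxo3, a factor of quiescence and stress resistance, at 173 and 37.3 CPM (-2.21), and Klf9 at 204 and 28.2 CPM (-2.85). Pik3ip1, an inhibitor of PI3-kinase, was at 52.5 and 2.93 CPM (-4.16). On the side of division, all 23 measured mitosis genes of 40 were at least 2-fold higher, 13 of them by the filter alone, with a median of 2.75. Top2a, the mitotic topoisomerase (chr11:98992947-99024199), was at 15.5 and 216 CPM (3.80, 3.31 to 4.34), with 39.4% of its 33 unwounded UMIs in 1 cell, and Ube2c, a ubiquitin-conjugating enzyme of mitotic exit, at 16.4 and 176 CPM (3.42). Birc5, survivin, was at 23.9 and 128 CPM (2.42), with 39.2% of the unwounded UMIs in 1 cell and 5.43 CPM in bulge-like unwounded cells. Replication genes were at least 2-fold higher in 8 of 17 cases (3 by the filter alone; median 0.91), and Pcna, the polymerase clamp, was at 48.8 and 99.6 CPM (1.03). Among histones, Hist1h1b, a linker histone of S phase, was at 11.3 and 229 CPM (4.35), and H2afz, a histone variant, at 282 and 1065 CPM (1.92).

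Mitosis genes share a promoter element, the cell cycle homology region TTTGAA, through which they are repressed in resting cells. In the Top2a promoter it lies 23 bases before the start, in a stretch from 90 to 1 bases before it (RefSeq, GRCm38.p6, minus strand, chr11:99024190-99024279), here read on the opposite strand.

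Top2a: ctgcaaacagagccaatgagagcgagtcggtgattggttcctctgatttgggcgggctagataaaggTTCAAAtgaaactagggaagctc

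The element was found in 31 of 37 promoter entries of the mitosis list (83.8%) and in 17.9% of all entries. Because depth per cell differed, shares of cells with a UMI were also compared after thinning each cell to 5000 UMIs, which left 235 unwounded and 1381 3-day cells (32 and 29 shallower cells were left out). Top2a was then found in 5.11% of unwounded cells (95% Clopper-Pearson interval 2.67 to 8.75%) and 31.8% of 3-day cells (29.3 to 34.3%). Without thinning, the shares were 7.49% and 57.4%. Bulge-like 3-day cells had Top2a in 12% (6.87 to 19%) after thinning.

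Serine and one-carbon genes were at least 2-fold higher in 5 of 9 measured cases (1 by the filter alone) and lower by that limit in 1, with a median of 1.20. The enzymes of serine synthesis act in the order Phgdh, Psat1, Psph. Phgdh (chr3:98313171-98339969) was at 59.6 CPM (49.7 to 70.9) in unwounded and 115 CPM (112 to 117) in 3-day cells (0.95), and 3-day male and female cells had 119 and 104 CPM. Psat1 (chr19:15905123-15925059) was at 12.2 and 78.4 CPM (2.68, 2.13 to 3.30), with 5.97 CPM in bulge-like unwounded and 29 CPM in bulge-like 3-day cells. After thinning, Phgdh was found in 25.1% of unwounded (19.7 to 31.2%) and 39.7% of 3-day cells (37.1 to 42.3%), and Psat1 in 2.98% (1.21 to 6.04%) and 29% (26.6 to 31.4%). Without thinning, Phgdh was found in 30% and 79.1% and Psat1 in 5.99% and 77.9% of cells. The next steps of the pathway differed in direction: Shmt2, the mitochondrial enzyme that takes a carbon from serine, was at 21.6 and 55.8 CPM (1.37), and Mthfd1, its cytosolic folate partner, at 46.9 and 22.3 CPM (-1.07).

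Glycolysis genes had a median of 1.70, with 14 of 16 at least 2-fold higher (1 by the filter alone) and 0 lower. Gapdh was at 515 and 2046 CPM (1.99), Ldha, which makes lactate, at 322 and 1151 CPM (1.84), and the lactate transporter Slc16a1 at 5.16 and 39.9 CPM (2.95). Hexokinase genes parted: Hk2 was at 80.2 and 212 CPM (1.40) and Hk1 at 68 and 43.9 CPM. HIF factors bind ACGTG, and the Slc16a1 promoter holds the palindrome CACGTG, so that 1 site gives a match on each strand. It lies in a stretch from 242 to 153 bases before the start (RefSeq, GRCm38.p6, plus strand, chr3:104638422-104638511).

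Slc16a1: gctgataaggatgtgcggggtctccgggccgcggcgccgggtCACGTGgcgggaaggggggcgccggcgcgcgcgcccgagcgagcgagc

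The motif ACGTG was found in 17 of 31 promoter entries of the 19 glycolysis genes (54.8%), some of which have several starts, and in 19.6% of all entries. Hypoxia genes had 5 of 14 at least 2-fold higher (median 0.87), with Higd1a, a mitochondrial protein of low oxygen, at 108 and 598 CPM (2.46). Respiratory genes differed less: 8 of 45 oxidative phosphorylation genes were at least 2-fold higher and 0 lower (median 0.64), and of 23 TCA cycle genes, 1 was higher and 1 lower by that limit (median 0.12). The complex IV genes Cox5a and Ndufa4 were at 175 and 508 CPM (1.54) and at 222 and 702 CPM (1.66).

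Cholesterol synthesis genes were at least 2-fold higher in 14 of 17 measured cases (2 by the filter alone), with a median of 1.45. By any size 17 of 17 were higher, against 43.9% of all measured genes. Idi1, the isomerase of isoprenoid units, was at 47.9 and 159 CPM (1.74). Of fatty acid genes, Fabp5, the epidermal fatty acid carrier, was at 1730 and 15080 CPM (3.12), with 876 CPM in bulge-like unwounded cells. Elovl4, which makes barrier lipids, was at 19.2 and 145 CPM (2.91), and 1 cell held 70.7% of the unwounded UMIs. Of 25 measured pentose phosphate and redox genes, 5 were at least 2-fold higher and 4 lower (2 by the filter alone; median 0.80). By any size 21 were higher and 4 lower. Among antioxidant genes, Gpx2 was at 7.04 and 58.8 CPM (3.06), whereas Sod1 was at 99.9 and 25.7 CPM (-1.96) and Gstm1, a glutathione transferase, at 70.4 and 13.7 CPM (-2.36).

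The machinery of protein synthesis was higher by smaller folds. Ribosome biogenesis genes had 13 of 29 members at least 2-fold higher (2 by the filter alone; median 0.97), translation factors 12 of 26 (median 0.94), and aminoacyl-tRNA synthetases 7 of 19 (median 0.93). Members at least 2-fold lower numbered 0 in each of these lists. Nucleolin, Ncl, was at 448 and 1059 CPM (1.24) and nucleophosmin, Npm1, at 806 and 1881 CPM (1.22). Eif6, which keeps ribosomal subunits apart, was at 132 and 432 CPM (1.71). Ribosomal proteins themselves differed by small folds, with a median of 0.33 over 47 genes (0.94 with TMM factors) and 1 at least 2-fold higher. By any size 44 were higher and 3 lower, against 43.9% of all measured genes higher. In bulge-like cells 47 of 47 were higher (median 0.49), against 42.9% of all genes measured there. Rpl13 was at 5994 and 5995 CPM and Rps2 at 2294 and 5600 CPM (1.29). The mitochondrial chaperone gene Hspd1 was at 141 and 385 CPM (1.45).

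**Figure D3:**
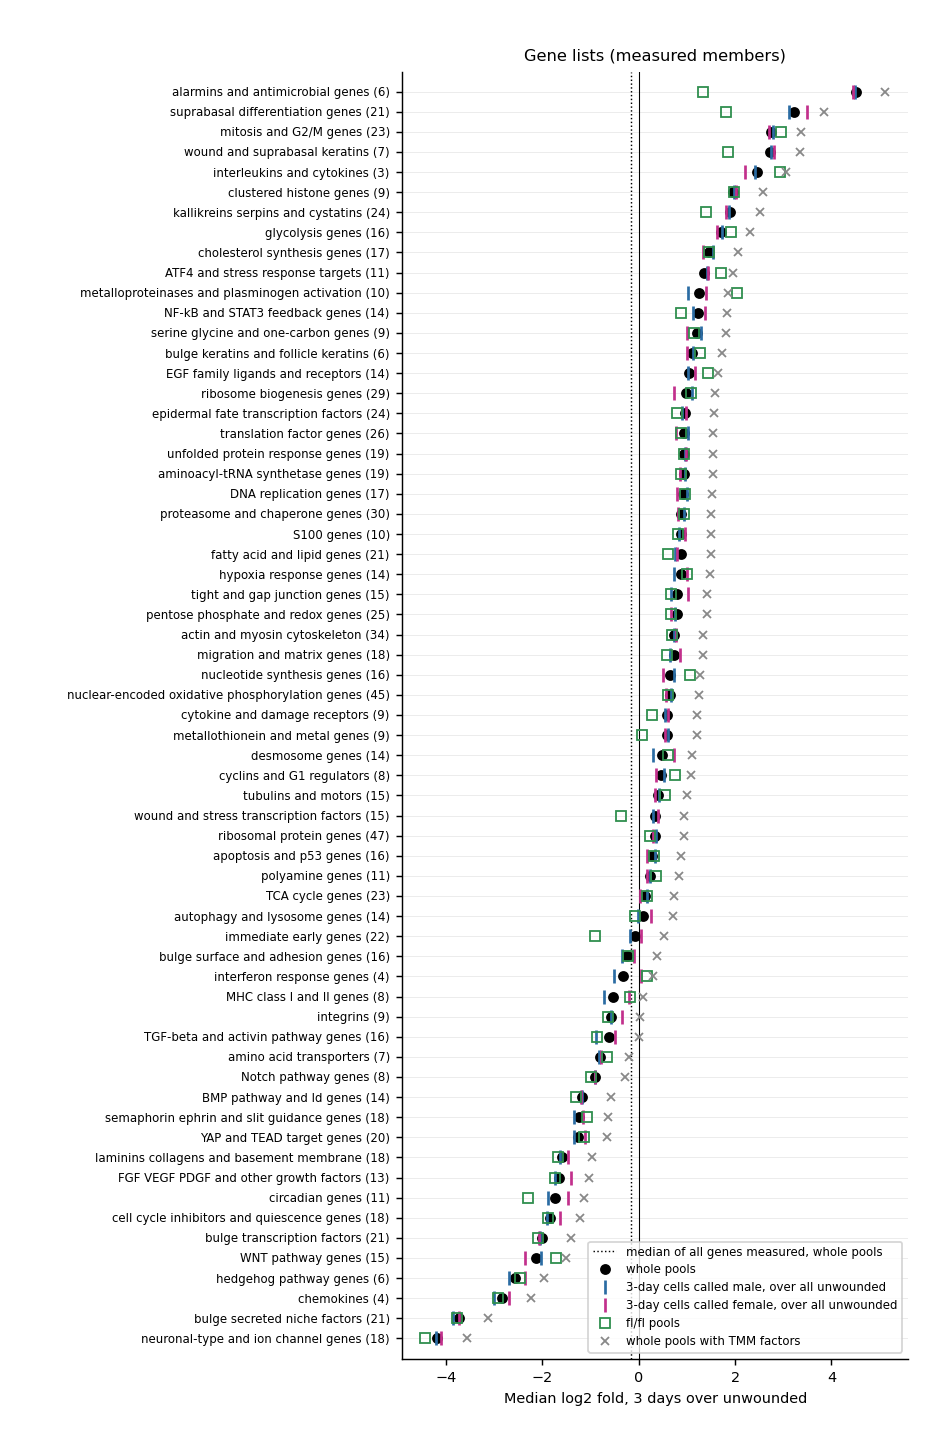
Median log2 fold (x axis, 3 days over unwounded) of the measured members of each gene list (y axis, number measured in parentheses): black circles for the +/+ pools, ticks for 3-day male and female cells over the same unwounded pool, squares for fl/fl pools and crosses for TMM factors. Neuronal-type and niche genes lie lowest (-4.18 and -3.74), and alarmins and suprabasal genes are highest in +/+ but lie lower in fl/fl pools (1.33 and 1.81).

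Single cells showed how the pools overlap. The summed level of 12 bulge markers (Cd34, Lgr5, Krt15, Krt24, Sox9, Lhx2, Fgf18, Tbx1, Postn, Nfatc1, Cd200 and Dkk3) had a median of 19530 CPM per cell in the unwounded and 266.3 CPM in the 3-day pool. Of 1410 3-day cells, 214 (15.2%, 13.3 to 17.2%) were at or above 3593 CPM, the 5th percentile of unwounded cells, and 55 (3.9%) lay within 20% of that limit. The proteins of Cd34 and Cd200 gated the unwounded and not the 3-day cells, so part of this separation may come with the gate. For 8 wound edge markers (Krt6a, Krt6b, Krt16, Mmp9, Mmp13, Plaur, Itga5 and Nrg1), the medians were 1332 and 6735 CPM. The 95th percentile of unwounded cells was 2886 CPM, and 506 3-day cells (35.9%) were at or below it. Both conditions together were met by 195 cells (13.8%, 12.1 to 15.7%). Cells above both limits were few, 19 of 1410 (1.35%). Many 3-day cells had neither set at the level of its typical pool, and these classes are ranges of a sum and not cell types. Free RNA was estimated at 3.21% of UMIs in the unwounded and 0.585% in the 3-day pool, and its part in these sums was not tested.

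**Figure D4:**
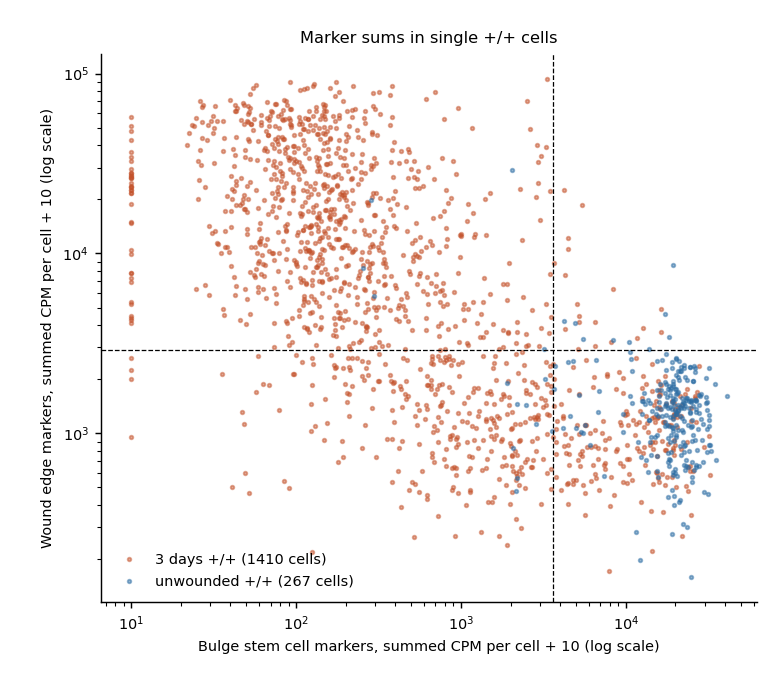
Summed CPM per cell plus 10 of 12 bulge markers (x axis, log scale) and 8 wound edge markers (y axis, log scale) in 267 unwounded (blue) and 1410 3-day (orange) +/+ cells. Dashed lines mark the unwounded 5th percentile (3593 CPM) and 95th percentile (2886 CPM), and 19 3-day cells lie above both.

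Other list sums per cell moved likewise. G2/M genes had a median of 155.4 CPM per unwounded and 635.8 CPM per 3-day cell, glycolysis genes 1797 and 6727 CPM, and ribosome biogenesis genes 2082 and 4416 CPM. Neuronal-type genes had medians of 4912 and 547.2 CPM, and circadian genes 760.8 and 307.1 CPM. The medians of cells thus differed in the same direction as the pools, although the 3-day pool is a mixture. Its quartiles for G2/M genes were 183.6 and 3051 CPM.

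Clustering of the +/+ cells divided 1410 3-day cells into 11 clusters of at least 50 cells. Their shares rest on the sort and on this clustering, and list sums within clusters are descriptions, since the same genes formed the clusters. Cluster 11 (114 cells), most of the 127 bulge-like 3-day cells (9.01%), had 5605 CPM of niche factors and 2479 CPM of neuronal-type genes, the highest of the 11 clusters. Cluster 2, wound edge-like (83 cells, 5.89%), was led by Mmp10, Inhba and Mmp13. It had 5548 CPM of the protease list against 571 CPM in bulge-like unwounded cells, 5549 against 1137 CPM of EGF-family genes, and 4352 against 1107 CPM of integrins. Basement membrane genes came to 8993 CPM in cluster 2, above the 4666 CPM of bulge-like unwounded cells, while they were at 380.1 CPM in cluster 7. The lower level of that list in the 3-day pool was thus not shared by every cluster. Of the 67 cells of cluster 2 with a sex call, 47.8% were female.

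Cluster 5, also wound edge-like (222 cells, 15.7%), was led by Il33, Krt6b and Gjb2 and had 31420 CPM of lipid genes against 1652 CPM in bulge-like unwounded cells. Cluster 7, suprabasal-like (129 cells, 9.15%), and the unnamed cluster 6 (86 cells, 6.1%, led by Lce3d and Lce3c) had the highest sums of differentiation genes, with 48720 and 66430 CPM against 3660 CPM in bulge-like unwounded cells. Clusters 5 and 0 had 22880 and 22110 CPM of the same list, so that these genes were raised well beyond clusters 6 and 7. Wound edge markers were likewise not confined to the clusters named for them. They summed to 51120 CPM in cluster 6 and 25480 CPM in cluster 0, against 38480 CPM in cluster 5 and 21470 CPM in cluster 2. Cluster 10, upper follicle-like (96 cells, 6.81%), had 22660 CPM of kallikreins, serpins and cystatins and 3742 CPM of bulge transcription factors, against 806 CPM of the latter in cluster 2. MHC genes came to 2647 CPM there.

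Mitosis genes had their highest sums in unnamed clusters: cluster 1 had 5225 CPM, cluster 8 4489 CPM, cluster 9 4017 CPM and cluster 3 3490 CPM, against 680.3 CPM in cluster 2 and 335 CPM in cluster 6. The wound edge-like cluster 5 had 2044 CPM and the suprabasal-like cluster 7 1141 CPM, both above the 263 CPM of bulge-like unwounded cells. Cluster 1 (109 cells, 7.73%), led by Postn and Tnc among others, combined raised markers of the bulge (7 of 12) and of cycling cells (5 of 7). It had 2719 CPM of niche factors, against 7697 CPM in unwounded bulge-like cells and 249 CPM in cluster 5. Glycolysis genes reached 13770 CPM in cluster 2 and 10270 CPM in cluster 6, followed by 9791 CPM in cluster 5 and 9124 CPM in cluster 3. Ribosome biogenesis genes were highest in cluster 3 (7861 CPM), which was led by Hmga2, Nrg1 and Cxcl2 among others. Serine and one-carbon genes reached 935 CPM in cluster 9 and 831 CPM in cluster 8, and were at 331 CPM in cluster 6 against 338 CPM in unwounded bulge-like cells.

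**Figure D5:**
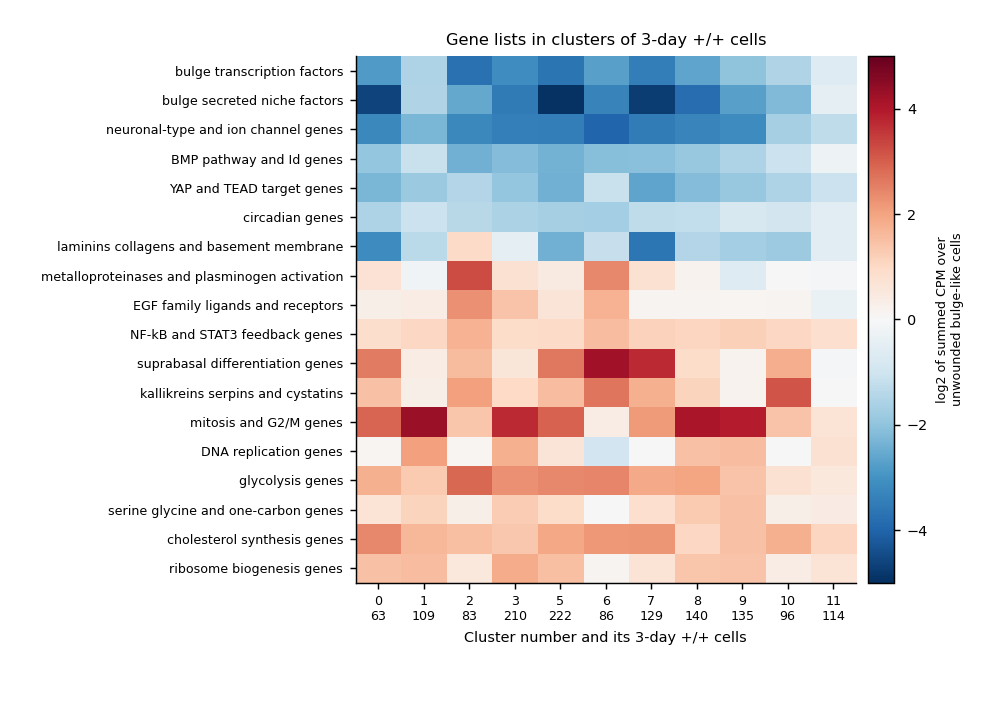
Log2 ratio (colour) of the summed CPM of each gene list (rows) in each cluster of 3-day +/+ cells (columns, with cell numbers) over bulge-like unwounded cells, coloured between -5 and 5. Mitosis genes are highest in clusters 1, 8, 9 and 3, glycolysis and protease genes in cluster 2, and differentiation genes in clusters 6 and 7; cluster 11 is the palest column.

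Bulge-like cells could be compared between the conditions, 255 unwounded against 127 at 3 days. Different clusters held them: clusters 4 and 12 had 254 of the unwounded and 13 of the 3-day cells, and cluster 11 had 1 and 114. Their median depth was 7133 and 15090 UMIs, and 40.2% of the sex-called 3-day cells were female. Over 6450 measured genes, 235 (3.64%) were at least 2-fold higher and 501 (7.77%) lower at 3 days, and the median over all of them was -0.10 (log2). These shares lie under those of the whole pools (11.8% and 23.6%). The 3-day cells were grouped by their likeness to bulge cells, so smaller differences follow in part from that choice. Since bulge markers named these clusters, their level within the class is no result.

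Outside those markers, Krt17 was at 301 CPM in unwounded and 2338 CPM in 3-day bulge-like cells (2.96, 2.83 to 3.09), and Cd44 at 177 and 592 CPM (1.74). Krt17 is also an upper hair follicle marker, and Krt79, another of these, was at 12.5 and 105 CPM (3.07). Of 6 such markers measured in bulge-like cells, 4 were higher and 2 lower by any size. Whether this comes with the sort gate, which differed with the condition, was not tested. Tnc, the wound matrix protein tenascin C, was at 46.7 and 187 CPM (2.01), although over whole pools it was at 41.8 and 39.3 CPM. Hes1 was at 22.2 and 111 CPM (2.32), and Fosl1 at 11.9 and 82.7 CPM. Gpx2 went from 4.88 to 134 CPM (4.78). NF-kB and STAT3 feedback genes were at least 2-fold higher in 5 of 10 cases (median 0.85), among them Socs3 at 34.7 and 112 CPM (1.69). Immediate early genes were at least 2-fold higher in 6 of 22 cases and lower in 0. By any size 18 were higher (median 0.34), unlike over whole pools, against 42.9% of all genes measured in bulge-like cells. Their part in the other differences was not tested. Cholesterol synthesis genes were at least 2-fold higher in 9 of 14 cases (median 1.20), with Idi1 at 26.6 and 98 CPM (1.88).

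Several lowered groups were lower in bulge-like cells too, mostly by smaller folds. Neuronal-type genes had a median of -1.78 there, and Grik1 was at 600 and 61.8 CPM (-3.28). Ccn2 was at 1125 and 226 CPM (-2.31), Ccl27a at 536 and 62.8 CPM (-3.09), and Npas2 at 94.9 and 17.6 CPM (-2.43). Other groups that were lower over whole pools had medians near 0 in bulge-like cells. BMP and Id genes had a median of 0.09 there, with 8 of 14 higher by any size, and the TGF-beta and activin list had -0.06, with 8 of 16 higher. Of all genes measured in bulge-like cells, 42.9% were higher by any size and the median was -0.10, so both lists lay near all genes. Bulge transcription factors had a median of -0.51, of which some are markers that named the class. Odc1, the rate-limiting enzyme of polyamine synthesis, had opposite directions: 265 and 57.1 CPM in bulge-like cells (-2.21, -2.51 to -1.92) and 318 and 613 CPM over whole pools (0.95). Stress keratins Krt16 and Krt6b were not higher in bulge-like 3-day cells, with 541 and 295 CPM and 197 and 88.9 CPM. Both are wound edge markers and lead cluster 5, so 3-day cells high in them were grouped elsewhere. Their low level in the bulge-like class follows in part from that grouping and is no result.

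The fl/fl pools had their own unwounded pool and so serve as a second set of cells, although the genotype differs and the fl/fl pools held no cell called female (340 of 602 unwounded and 70 of 531 3-day cells had no call). Of 6123 genes measured in both, 735 were at least 2-fold higher in +/+ and 769 in fl/fl, and 633 were shared (86.1% of the +/+ and 82.3% of the fl/fl genes). Lower genes numbered 1382 and 1302, of which 1181 were shared (85.5% and 90.7%). Over all 6249 genes measured in the fl/fl pools, 12.5% were at least 2-fold higher and 21.5% lower. The fl/fl pools ran in the same capture, and a sort gate that differed with the condition in the same way would also give shared genes. This was not tested. No gene that was 2-fold lower in +/+ was higher in fl/fl, and 3 that were 2-fold higher in +/+ were lower in fl/fl. These were Rgs2, a G-protein regulator, at 15.5 and 33.9 CPM in +/+ and 27.3 and 18.2 CPM in fl/fl, Lce3d at 1.88 and 75.6 CPM and 84.1 and 77.3 CPM, and Ifrd1, a stress-responsive coregulator, at 183 and 381 CPM and 311 and 276 CPM. They were chosen after their values were seen, and for Lce3d it is the unwounded pools that stand apart.

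Sex was called per cell at 3 days, and male and female values share the unwounded pool. List medians over male and female 3-day cells were -3.86 and -3.74 for niche factors, 1.72 and 1.63 for glycolysis, and 3.12 and 3.50 for differentiation genes. The absolute difference between male and female log2 folds had a median of 0.12 over measured genes. Angptl7, a secreted niche factor, was among the members with a wider gap, at 0.749 CPM in male and 4.86 CPM in female 3-day cells against 82.6 CPM unwounded. Krt10 was at 886 and 1946 CPM, and Krt1 at 1076 and 2234 CPM. Number of animals per sex is not given in the sources used here, so sex and animal cannot be told apart.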

How the data were processed

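Single-cell 3′ libraries of 1 capture held a gene expression and a hashtag library of skin cells (reads of 28 and 90 bases). The deposited values are UMI counts per feature and barcode, made by the authors with Cell Ranger 7.1.0 on mm10, and the authors used Seurat 4.3.0, per the submitters' processing notes. From these counts, cells were filtered and assigned to hashtags as stated in the results, and UMIs were summed per pool, scaled to CPM and compared as ratios with exact conditional binomial intervals. Levels have exact Poisson and shares exact Clopper-Pearson 95% intervals, and a count of 0 was taken to allow 3 counts. All cover counting error only, because each condition was 1 pool. Genes were named from 63 lists or as the 20 genes with the largest fold in each direction with a mean over both pools of 50 CPM or more and UMIs in 10 or more cells. The members and lists were chosen with earlier results of these data known. Cells of the +/+ pools were clustered (scanpy 1.11.5, Python 3.11.15) and named from 20 fixed marker lists. Scrublet called 0 of 6900 cells as doublets and so did not work; leaving out the 2% of cells with the highest doublet scores was an alternative. Others were HTODemux assignment (Seurat 5.3.0), TMM factors (edgeR 4.0.16), and cell, level and hashtag limits. Female cells had at least 2 Xist UMIs and at most 1 Y-linked UMI. Free RNA was taken from 65043 barcodes of 100 to 399 UMIs. Pool folds were checked on simulated counts. Promoters came from RefSeq (GRCm38.p6).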

Additional observations from a re-analysis of the deposited data

How the results depend on the processing

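The counts of genes at least 2-fold higher and lower, 758 and 1521, became 1947 and 708 with TMM factors, 1241 and 3040 with a mean of at least 5 CPM, 436 and 701 with at least 50 CPM, and 1743 and 6110 with no filter. For the other 13 settings they ranged from 697 to 942 and from 1367 to 1821. Cd34 was found in 66.3% of unwounded and 5.64% of 3-day cells at 2000 UMIs, and in 28.1% of 3-day cells without thinning. Lgr5 was found in 54.7% and 4.85% at 2000 UMIs and in 80.1% and 16.1% without thinning, and Mki67 in 18.1% and 57.4% of 3-day cells at 2000 UMIs and without thinning. Depth thus limits what a share of cells can show.

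Of 227 named genes, 1 called fold changed sign, Krt10 without suprabasal-like 3-day cells (-0.48). TMM factors moved all 227 by over 1.5 times, since they shift every fold alike, and 12 calls were lost. Equal weight per cell moved 65 genes (6 calls lost), the 90% hashtag rule 49 (5 lost), bulge-like unwounded cells alone 49 (0 lost), leaving out the highest doublet scores 43 (0 lost), HTODemux 35 (7 lost), male cells only 28 (8 lost) and leaving out the top cell of each gene 24 (0 lost). The limits of 5% and 20% mitochondrial UMIs moved 14 and 6 genes and lost 7 calls each. Genes near the 2-fold limit that lost the call under some settings were Cst3, Epha2, Erbb3, Hes1, Hif1a, Id1, Ifrd1, Itga2, Mthfd1, Ncl, Nfkbiz, Npm1, Pcna, Rgs2, Slc38a2 and Wnt4, and with TMM factors also Arntl, Fosb, Ftl1, H2-T23, Jag1, Smo and Tgfbi. Bmp7, Clcf1 and Krt1 have their values in the results, and Cst6 was at 0.94 with the 90% hashtag rule; the cause was not tested. No paired analysis was possible because each condition is 1 pool of cells and carries no replicate number.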

Other observations

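Genes for metal handling and for cell death belonged to no group described above. Metallothionein and metal genes had a median log2 fold of 0.59 over 9 measured members, with 3 at least 2-fold higher and 2 lower. Ftl1, the ferritin light chain that stores iron, was at 1055 CPM in unwounded and 402 CPM in 3-day cells (-1.39), and Mt1, a metallothionein, at 1414 and 1643 CPM. Mt4, the metallothionein of stratified epithelia, was at 7.04 and 98.1 CPM (3.80), and bulge-like unwounded and 3-day cells had 5.43 and 1.9 CPM. Among apoptosis and p53 genes, 5 of 16 were at least 2-fold higher and 3 lower (3 by the filter alone; median 0.27). Cdkn1a, the inhibitor p21, was at 74.1 and 232 CPM in +/+ (1.65) and at 172 and 217 CPM in fl/fl pools. Bcl2, which protects from cell death, was at 66.2 and 10.6 CPM (-2.64).

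Amino acid transporters and polyamine genes were mixed. Of 7 measured transporters of 20, 2 were at least 2-fold higher and 3 lower (3 by the filter alone). Slc38a2, an importer of small neutral amino acids, was at 672 and 324 CPM (-1.05, but -0.44 with TMM factors and -0.88 with equal weight per cell), and Slc7a1, the arginine importer, at 11.7 and 49.4 CPM (2.07). Of 11 measured polyamine genes, 4 were at least 2-fold higher and 2 lower (2 by the filter alone; median 0.23). Srm, spermidine synthase, was at 32.4 and 98.1 CPM (1.60), and Sat1, which begins polyamine breakdown, at 75.1 and 282 CPM (1.91). Oaz2, an inhibitor of ornithine decarboxylase, was lower, at 56.8 and 13.1 CPM (-2.12).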
